A study of Mus musculus with 2 samples.

Results

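Th2 nuclei of the mouse gut were taken as nuclei with a total of 500 to 4000 unique molecular identifiers (UMIs, each counting 1 RNA molecule), at least 1 UMI of Cd3d, Cd3e or Cd3g, no UMI of Foxp3, and at least 2 UMIs summed over Il5, Il13, Il17rb, Pparg and Hs3st1. Of 6614 barcodes in all, 63 met these conditions, 53 of 4223 in the control library and 10 of 2391 in the knockout library. They were compared within each library with the other Cd3-positive nuclei of the same UMI window, of which the control library held 1977 and the knockout library 872. The members were thus chosen by their RNA, so the 5 marker genes, the Cd3 genes and Foxp3 are given below as a description of the selection.

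RNA and chromatin accessibility were measured in the same nuclei with the 10x Multiome kit. Control animals were of genotype Zfp362flox/flox and knockout animals CD4creZfp362flox/flox, at an age of 26 to 33 weeks in both groups. In the knockout, Cre under Cd4 regulatory sequence deletes the floxed gene in T cells, including CD8 T cells that pass through a CD4-expressing stage, so the deletion is not limited to Th2 cells. Both genotypes carry the floxed Zfp362 allele, and Zfp362 encodes a zinc-finger protein. Effector cells were sorted as CD4+CD44+CD62L- and negative for F4/80, CD45R, CD11c and CD8a from colon pooled with small intestine, and the target was 5000 nuclei for a library. A number of 7 mice is given for the design, with no statement of how they divide between genotypes, and animals cannot be told apart within a library. With 1 library per genotype no test across samples exists: each interval below is a 95% interval for counting error only, and it is too narrow where few nuclei hold most of a gene's UMIs.

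Th2 cells are the helper T cells of type 2 immunity, which acts against worms and in allergy. Their lineage factor is GATA3, they secrete IL-4, IL-5 and IL-13, and in tissues they share much of this programme with group 2 innate lymphoid cells (ILC2), including PPARγ and the receptors for IL-25 (IL-17RB) and IL-33 (ST2, from Il1rl1). The genes for IL-4, IL-13 and IL-5 lie side by side on mouse chromosome 11, with Rad50 between Il13 and Il5 carrying a locus control region of the cluster.

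The targeted gene gave 2 UMIs in 2 control Th2 nuclei and 0 in the 10 knockout Th2 nuclei, too few to check the label in these nuclei. In the other Cd3-positive nuclei Zfp362 stood at 11.9 CPM in the control library and at 6.55 CPM in the knockout library, where CPM are UMIs scaled to a total of 1000000. The deleted part of the gene is not stated, so its UMIs may lie outside that part. Median depth was 1996 and 2270 UMIs over all barcodes, and 11 barcodes occurred in both libraries, none of them a Th2 nucleus. Th2 nuclei were somewhat deeper than the others, with medians of 2232 against 1966 UMIs in the control and 2496.5 against 2130 in the knockout library. Their median number of detected genes was 1098 against 1075 and 1082 against 1106.5, and mitochondrial UMIs were 0.421% and 0.172% of all. Summed, the Th2 nuclei held 127167 and 23809 UMIs, so knockout values are the less precise.

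Promoter sequence is shown for the 3 clustered cytokine genes and for Pparg, because their RNA or accessibility in Th2 nuclei is described below. The RefSeq table on GRCm38.p6 gave 250 bases before to 50 bases after a start site, for Il13 at chr11:53634653-53634952 and Il4 at chr11:53618616-53618915 (both minus strand), and for Il5 at chr11:53720544-53720843 and Pparg at chr6:115360894-115361193 (both plus strand). Capitals mark matches on either strand to the GATA letters AGATAA or TGATAA. The AP-1 letters TGANTCA, also searched on both strands, matched none of the 4.
Il13: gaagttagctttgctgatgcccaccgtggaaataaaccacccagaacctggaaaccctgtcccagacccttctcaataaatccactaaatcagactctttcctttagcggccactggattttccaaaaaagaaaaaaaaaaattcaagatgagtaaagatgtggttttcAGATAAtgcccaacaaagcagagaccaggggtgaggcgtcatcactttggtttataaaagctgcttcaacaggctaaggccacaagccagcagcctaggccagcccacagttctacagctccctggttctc
Il4: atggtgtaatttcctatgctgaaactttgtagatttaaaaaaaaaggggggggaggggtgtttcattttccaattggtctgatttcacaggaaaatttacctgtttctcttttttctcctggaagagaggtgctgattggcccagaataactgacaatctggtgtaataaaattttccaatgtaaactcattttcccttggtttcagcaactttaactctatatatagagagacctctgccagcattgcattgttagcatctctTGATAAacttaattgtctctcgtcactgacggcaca
Il5: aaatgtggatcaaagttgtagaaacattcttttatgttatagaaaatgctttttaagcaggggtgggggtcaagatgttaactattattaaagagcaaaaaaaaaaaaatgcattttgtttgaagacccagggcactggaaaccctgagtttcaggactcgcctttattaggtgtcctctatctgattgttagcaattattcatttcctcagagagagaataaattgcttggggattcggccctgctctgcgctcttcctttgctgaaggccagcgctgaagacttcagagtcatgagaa
Pparg: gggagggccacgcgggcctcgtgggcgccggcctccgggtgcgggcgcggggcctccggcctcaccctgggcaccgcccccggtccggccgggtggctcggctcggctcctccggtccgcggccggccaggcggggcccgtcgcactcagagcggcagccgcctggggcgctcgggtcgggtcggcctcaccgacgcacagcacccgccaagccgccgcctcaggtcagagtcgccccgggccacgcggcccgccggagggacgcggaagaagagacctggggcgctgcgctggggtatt
In the windows shown, Il13 and Il4 held 1 GATA match each, Il5 and Pparg none. RefSeq lists further start sites, with windows at chr11:53617289-53617588 for Il4 and at chr6:115362099-115362398 and chr6:115421816-115422115 for Pparg. These windows held no GATA match. Other GATA-like letters were not searched, and AGATAG stands on the reverse strand of the Il5 window. The lack of a match thus does not mean that a GATA site is absent. Over all 32851 RefSeq promoters of this length, 18.6% held a GATA match and 7.81% an AP-1 match. Of 106 promoters of the genes at least 2-fold higher in control Th2 nuclei (83 of 105 genes matched the table), 12.3% held a GATA match, beside 10.6% for the promoters of all genes measured, and 3.77% held an AP-1 match, beside 5.10%. A match is only a run of letters in this window.

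Th2 nuclei made up 53 of 2030 Cd3-positive nuclei in the window in the control library (2.61%, exact Clopper-Pearson interval 1.96% to 3.40%) and 10 of 882 in the knockout library (1.13%, 0.545% to 2.08%). After every nucleus was thinned to 1000 UMIs, with shallower ones left out, the shares were 21 of 1461 (1.44%, 0.892% to 2.19%) and 3 of 601 (0.499%, 0.103% to 1.45%). The control share was the higher of the pair both ways, with overlapping intervals, but with no upper limit on UMIs the order turned, at 2.96% for control and 3.03% for knockout nuclei. The spread between animals is not known. By depth, the control share was 1.92%, 1.05% and 1.00% in bins from 500, 1000 and 1500 UMIs, then 4.56%, 4.17% and 3.74% from 2000, 2500 and 3000 UMIs. The knockout share in the same bins was 3.57%, 0%, 0%, 1.84%, 3.33% and 0.575%, each from at most 4 Th2 nuclei and with no steady order. As a background for free RNA, Cd3-zero nuclei with markers of group 3 innate lymphoid cells (ILC3), which should lack these markers, reached 2 marker UMIs in 4 of 945 control nuclei (0.423%) and 1 of 516 knockout nuclei (0.194%), at median depths of 1981 and 2062.5 UMIs for those without any marker UMI.

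Most members owed their place to Il17rb, Il5 or Pparg. In the control library Il5, the eosinophil growth factor, gave 71 UMIs in 20 of the 53 nuclei, and Il13, which acts on goblet cells and smooth muscle, 23 UMIs in 10. Il17rb, the IL-25 receptor chain, gave 56 UMIs in 31 nuclei, Pparg, a nuclear receptor for fatty acids, 55 in 20, and Hs3st1, a heparan sulfate sulfotransferase, 17 in 7. Nuclei were therefore a mixture: 28 held only 1 of the 5 markers, 18 held 2, 4 held 3 and 3 held 4. Il5 and Il13 occurred together in 6 nuclei, and 12 passed by Il17rb alone, 7 by Il5, 6 by Pparg and 3 by Il13.

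In the knockout library Il5 gave 28 UMIs in 5 of the 10 nuclei, but 20 of them (71.4%) lay in 1 nucleus of 2214 UMIs. That nucleus held 25 marker UMIs, against at most 12 in any control member, and also 26 of the 51 Gata3 UMIs, 11 of the 13 Il4 UMIs and 33 of the 39 Csf2 UMIs. Knockout values for these genes are therefore given also without it. Il17rb gave 10 UMIs in 5 knockout nuclei, Il13 6 in 2, Pparg 5 in 3 and Hs3st1 4 in 1.

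The lineage marker Gata3 stood high in both libraries. The gene lies on the minus strand at chr2:9857078-9890034 (mm10). It gave 1565 CPM in control Th2 nuclei against 373 CPM in the others, a log2 ratio of 2.07 (1.85 to 2.28), with a UMI in 45 of 53 nuclei and no nucleus above 7.04% of them. In the knockout library it gave 2142 against 411 CPM, a log2 ratio of 2.39 (1.94 to 2.79), or 1.52 (0.86 to 2.07) without the nucleus named above. After thinning, 63.5% of control Th2 nuclei had a Gata3 UMI, against 21.4% of the other Cd3-positive nuclei and 10.6% of the Cd3-zero ILC3-type nuclei. Calca, which encodes the neuropeptide CGRP, is the remaining marker outside the rule: 582 against 56.5 CPM in the control library (log2 3.37, 2.97 to 3.75, 14 nuclei) and 84.0 against 71.1 CPM in the knockout library, from 2 UMIs in 1 nucleus (log2 0.56, -2.82 to 2.12). Of the markers outside the rule, Gata3 was thus higher in the Th2 nuclei of both libraries, and Calca in those of the control library, while the knockout count of Calca is too low for a direction.

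**Figure D1:**
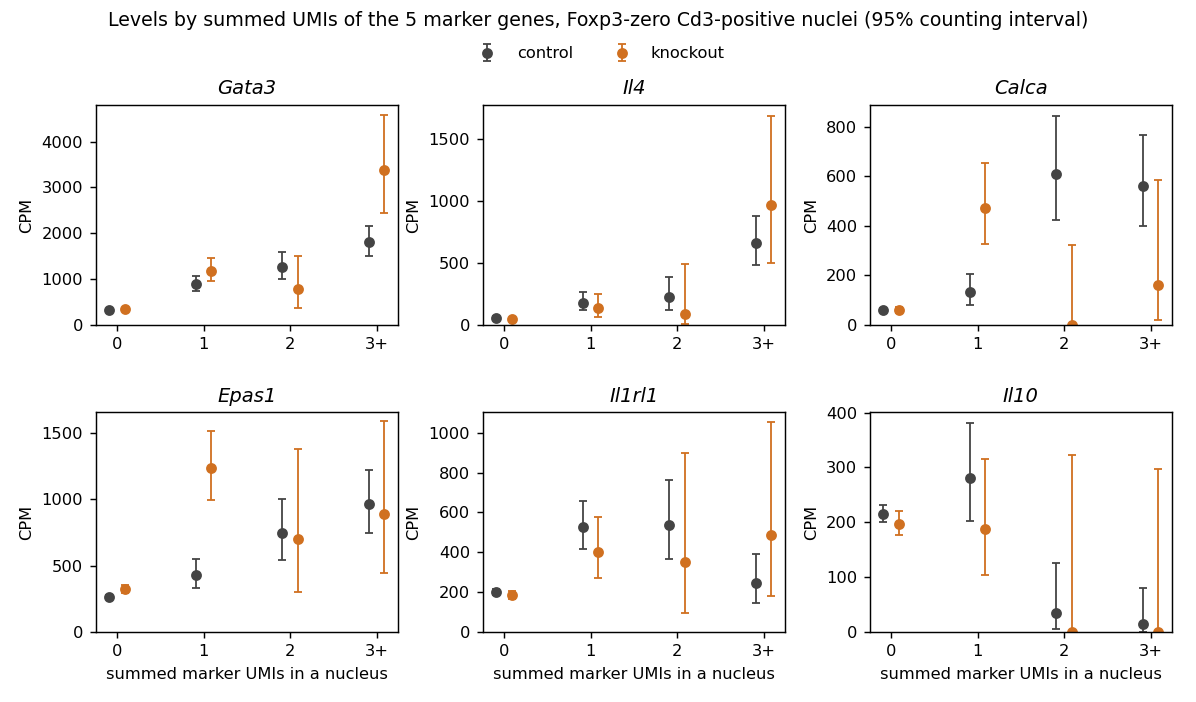
Levels in CPM (vertical axes) of Gata3, Il4, Calca, Epas1, Il1rl1 and Il10 in Cd3-positive Foxp3-zero nuclei by their summed UMIs of the 5 marker genes (horizontal axes, 0, 1, 2 and 3 or more), for both libraries, with 95% Poisson intervals. In the control library Gata3 goes from 321 to 891, 1267 and 1812 CPM, while Il10 goes from 215 and 281 to 34.7 and 14.4 CPM.

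Nuclei just outside the threshold already had part of this pattern. Control nuclei with 1 marker UMI (66) had Gata3 at 891 CPM, between 321 CPM with none (1669 nuclei) and 1267 CPM with 2 (23 nuclei), and 1812 CPM was reached with 3 or more (30 nuclei). Il4 followed the same order, with 57.7, 178, 226 and 661 CPM. Calca stood at 58.3, 130, 608 and 561 CPM. Il1rl1 did not follow it, with 200, 528, 538 and 244 CPM, nor did Areg, with 248, 863, 590 and 518 CPM. In the knockout library, with 746, 30, 5 and 5 nuclei, Gata3 gave 339, 1182, 788 and 3391 CPM. Calca there gave 59.2, 470, 0 and 161 CPM, highest in the nuclei with 1 marker UMI. Nuclei with 1 marker UMI are among the comparison nuclei, so Gata3-rich nuclei stand on both sides of the threshold.

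Across all genes with at least 20 UMIs observed or expected in the Th2 nuclei, 105 of 1463 (7.18%) were at least 2-fold higher in control Th2 nuclei and 111 (7.59%) at least 2-fold lower. In the knockout library 49 of 266 genes (18.4%) were higher and 9 (3.38%) lower, and the median log2 ratio over these genes was 0.34, against -0.01 in the control library, so knockout ratios are to be read against that shift. Genes enter by UMIs observed or expected, and with few nuclei many enter only because they are high: at a minimum of 5 UMIs these were 324 of 1293 knockout and 545 of 4556 control genes. Nothing is read from the excess of higher knockout genes. Of the 266 genes measured in both libraries, 202 had the same sign, 10 (3.76%) were at least 2-fold higher in each and 5 (1.88%) at least 2-fold lower in each. The 10 were Gata3, Ptpn13, Csf2, Hilpda, Kcnq5, Suco, Spty2d1, Nedd9, Paxbp1 and Tnfaip8, and the 5 were Ctla4, Ikzf2, Bach2, Stat3 and Epb41. Apart from list members, these names were taken after their values were seen, and in the knockout library 1 nucleus held from 26.2% (Ptpn13) to 100% (Ikzf2) of a gene's Th2 UMIs. Each of the 10 higher genes had fewer than 20 knockout UMIs expected from the other nuclei, as with 13.5 for Ptpn13. In the knockout library they thus entered only through the Th2 nuclei, and their ratios there lean upward by construction.

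By the smaller of the pair of ratios the highest was Ptpn13, a large tyrosine phosphatase, which gave 4136 CPM in control Th2 nuclei against 394 CPM in the others. Its log2 ratio was 3.39 (3.25 to 3.54) with UMIs in 44 of 53 nuclei, and in the knockout library 6888 against 566 CPM, 3.61 (3.36 to 3.84), in 8 of 10 nuclei. Without the nucleus of 25 marker UMIs it was 3.59. Suco, which encodes a membrane protein of the endoplasmic reticulum, gave log2 ratios of 1.67 (1.43 to 1.89) and 1.53 (0.92 to 2.04), and the potassium channel gene Kcnq5 1.17 (0.86 to 1.46) and 1.86 (1.29 to 2.33). Stat3, the signal transducer of IL-6 and IL-23, was at 464 against 1167 CPM in the control library (log2 -1.32, -1.73 to -0.96) and 378 against 1326 CPM in the knockout library (log2 -1.73, -2.94 to -0.88).

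Among cytokines and other ligands of type 2 cells, 9 of 14 listed genes had at least 5 UMIs observed or expected in the control library, 6 of them at least 2-fold higher and 1 lower, with a median log2 ratio of 3.08. Over all 4556 genes at that minimum, 8.76% were higher, 12.8% were lower and the median was -0.07. Only 6 of the 9 members had 5 UMIs expected from the other nuclei, so the remaining 3 entered through the Th2 nuclei themselves and the list's figures lean upward by construction. Knockout Th2 nuclei had 6 members measured, 3 higher and 2 lower, where 20.8% of 1293 genes were higher, 11.6% lower and the median was 0.26.

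Il4, which drives class switching to IgE, gave 464 CPM in control Th2 nuclei against 55.1 CPM (log2 3.08, 2.64 to 3.49), in 17 nuclei. In the knockout library it gave 546 against 43.9 CPM (log2 3.68), but 84.6% of its UMIs lay in 1 nucleus, and without it the log2 ratio was 1.39 (-1.99 to 2.97). After thinning, 17.3% of control Th2 nuclei had an Il4 UMI, 1.97% of the others and none of 912 Cd3-zero ILC3-type nuclei. Il4 in control Th2 nuclei was thus above both the other T nuclei and the free-RNA background, while the knockout value turns on 1 nucleus.

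Ccl1, the chemokine ligand of CCR8, reached 645 against 26.7 CPM in the control (log2 4.60, 4.16 to 5.02) and 504 against 52.9 CPM in the knockout library (log2 3.30, 2.25 to 4.12). It came from 10 control nuclei, 1 of which held 52.4% of the UMIs, and from 5 knockout nuclei. Csf2, which encodes GM-CSF, gave 228 against 24.6 CPM from 3 control nuclei (log2 3.23, 2.57 to 3.82) and 1638 against 31.8 CPM from 5 knockout nuclei (log2 5.70, or 3.23 without the nucleus of 25 marker UMIs). Il6 gave 142 against 2.15 CPM in 4 control nuclei, with 72.2% in 1. UMIs of these secreted factors thus came from few nuclei, which at this depth does not limit the share of nuclei expressing them.

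Tnfsf11, the gene of RANKL, lay on opposite sides of the other nuclei in the libraries, with the difference not tested. Control Th2 nuclei had 857 against 262 CPM (log2 1.71, 1.41 to 1.99), in 29 nuclei, and knockout Th2 nuclei 42.0 against 290 CPM from 1 UMI (log2 -2.21, -8.10 to -0.31). With no upper limit on UMIs, which adds 32 knockout nuclei, the knockout ratio was 0.33. Areg, an epidermal growth factor family ligand, gave 550 against 349 CPM in the control (log2 0.67, 0.29 to 1.00) with 35.7% of its UMIs in 1 nucleus, and 294 against 328 CPM in the knockout library. Il10 was low: 23.6 CPM from 3 UMIs against 286 CPM in the control (log2 -3.38, -5.88 to -2.05), and 0 UMIs against 285 CPM in the knockout library. The comparison nuclei include Foxp3-positive ones, which the rule bars from the Th2 nuclei. In control nuclei with no Foxp3 and no marker UMI Il10 stood at 215 CPM, but nuclei without a Foxp3 UMI can include regulatory T cells. The part of such cells in the Il10 ratio was not tested. Il9, Il31 and Ccl22 gave no UMI in control Th2 nuclei, where 3 UMIs would be 23.6 CPM.

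**Figure D2:**
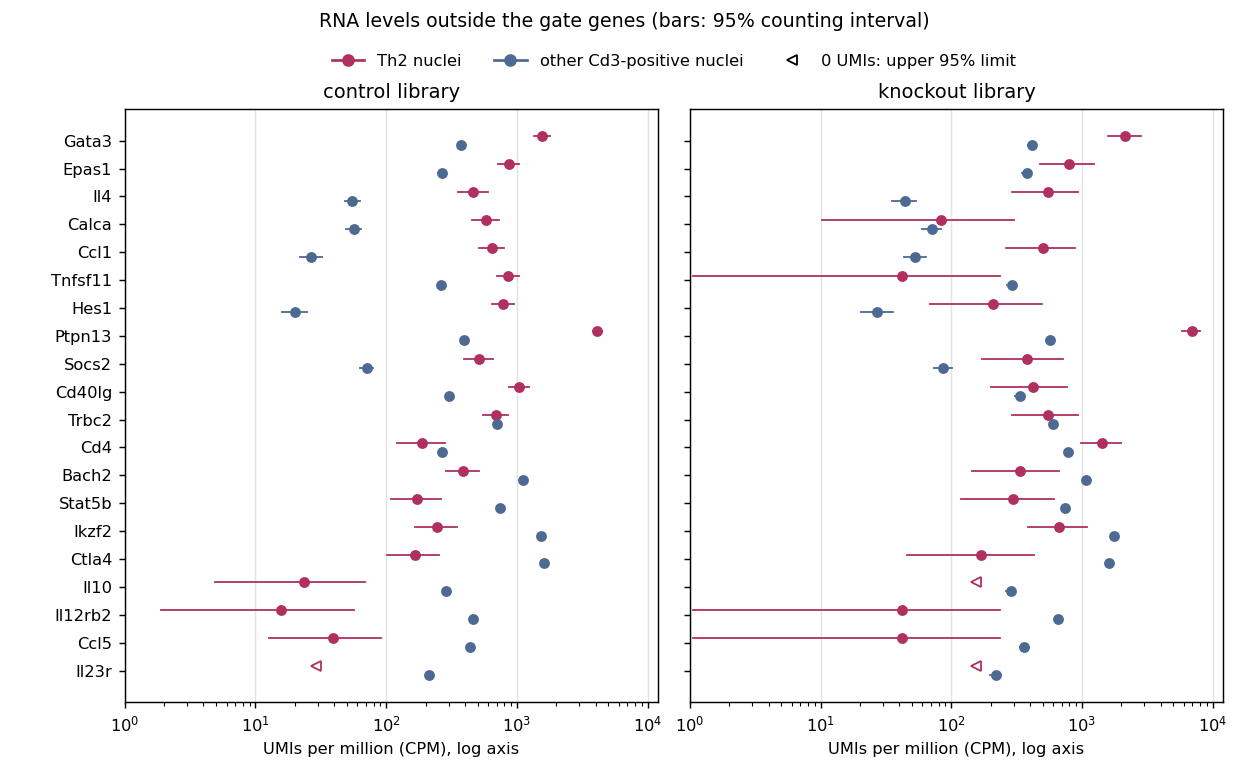
Levels of 20 genes in CPM on a log axis, in Th2 and other Cd3-positive nuclei of both libraries, with 95% Poisson intervals, where open triangles mark upper limits for 0 UMIs. Gata3, Il4 and Ptpn13 lie to the right in Th2 nuclei of both libraries and Ctla4 and Il12rb2 to the left, while Tnfsf11 and Calca differ between the libraries.

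Receptors showed no common direction. Of 18 listed, 15 were measured in the control library, 3 at least 2-fold higher and 3 lower, with a median log2 ratio of -0.28. Knockout Th2 nuclei had 9 measured, 2 higher and 2 lower, with a median of 0.40. Over all genes at the same minimum, 8.76% were higher and 12.8% lower in the control library. The knockout library had 20.8% and 11.6%. Il9r, the IL-9 receptor, gave 86.5 against 17.9 CPM in the control (log2 2.33, 1.21 to 3.20), and Ccr4, a skin and tissue homing receptor of Th2 cells, 142 against 47.9 CPM (log2 1.60, 0.78 to 2.26). Cd200r1, an inhibitory receptor, gave 204 against 56.3 CPM (log2 1.89, 1.22 to 2.45), with 34.6% of its UMIs in 1 nucleus. Knockout Th2 nuclei gave 1 UMI of Il9r, none of Ccr4 and 3 of Cd200r1.

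Il1rl1, the receptor for IL-33, was at 377 against 280 CPM in the control (log2 0.44, -0.02 to 0.85) and 420 against 242 CPM in the knockout library (log2 0.86, -0.27 to 1.69), so neither interval excluded an equal level. Control nuclei without Foxp3 and marker UMIs stood at 200 CPM. Il18r1, the IL-18 receptor, gave 78.6 against 414 CPM (log2 -2.33, -3.46 to -1.52) and, from 1 UMI, 42.0 against 418 CPM (log2 -2.73, -8.62 to -0.83). Crlf2, the receptor for the epithelial cytokine TSLP, gave 3 control UMIs, 23.6 against 87.5 CPM (log2 -1.67, -4.18 to -0.33). Of the 3 receptors for epithelial alarm cytokines, the IL-25 receptor was in the rule, and neither the IL-33 nor the TSLP receptor was 2-fold higher in control Th2 nuclei.

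Among 20 transcription factors listed for type 2 cells, 17 were measured in the control library, 2 at least 2-fold higher and 2 lower, with a median of 0.42. These shares are near the 8.76% and 12.8% over all genes. Knockout Th2 nuclei had 11 measured, 3 higher and 3 lower, with a median of -0.08. There 20.8% of all genes were higher and 11.6% lower. Of the higher control factors Gata3 is described above, and the other was Epas1, which encodes the hypoxia factor HIF-2α, at 865 against 265 CPM (log2 1.71, 1.41 to 1.99) in 39 nuclei. Epas1 was also higher in the knockout library, at 798 against 377 CPM (log2 1.12, 0.34 to 1.74) in 9 of 10 nuclei. The pair of lower factors were Stat5b, the IL-2 signal transducer, at 173 against 749 CPM (log2 -2.08, -2.79 to -1.51), and Prdm1, the gene of BLIMP-1, with 0 UMIs against 80.3 CPM, at least 3.41-fold lower by the limit of 3 UMIs over the group. Knockout Th2 nuclei had Stat5b at 294 against 736 CPM (log2 -1.22, -2.64 to -0.28). Bhlhe40 gave log2 ratios of 0.49 and 1.03, Rora, a factor of ILC2 development, 0.42 and 0.45, and Junb 0.50 and -0.17.

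Genes of lipid handling were mostly too sparse to measure, with 6 of 18 in the control library, 3 of them at least 2-fold higher, and 3 in the knockout library, 2 of them higher. Of these, 2 control members and 1 knockout member reached the minimum only through Th2 nuclei, so the counts lean upward. Hilpda, a lipid droplet protein induced by hypoxia, gave 401 against 151 CPM (log2 1.42, 0.97 to 1.82) and 1134 against 163 CPM (log2 2.82, or 2.04 without the nucleus of 25 marker UMIs). Acsl4, which activates arachidonic acid, gave log2 ratios of 1.05 (0.62 to 1.43) and 1.04 (-0.10 to 1.86). Plin2, which coats lipid droplets, gave 1.02 (-0.77 to 2.17) from 5 control UMIs. Dgat1, the last enzyme of triglyceride synthesis, was abundant but near the others, at 1085 against 1278 CPM in the control library (log2 -0.23).

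Of 18 genes listed for tissue Th2 cells, 14 were measured in the control library, with 3 higher and 1 lower, where 8.76% of all genes were higher and 12.8% lower. The knockout library had 9 measured, 4 higher and none lower, where 20.8% of all genes were higher. Plcl1, a phospholipase C-like protein, was at 370 against 135 CPM (log2 1.46, 0.99 to 1.88) and 672 against 131 CPM (log2 2.40, 1.53 to 3.09). Furin, a proprotein convertase, was at 1463 against 597 CPM (log2 1.30, 1.07 to 1.51) and 1092 against 644 CPM (log2 0.79, 0.14 to 1.32). Ltb4r1, the leukotriene B4 receptor, gave a log2 ratio of 2.16 from 5 control UMIs, and reached the minimum only through them. Ramp3, a partner of CGRP-family receptors, gave 0.50 in control and 1.21 in knockout Th2 nuclei.

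A ranking of the control library alone, added after the data were seen, named the genes with the highest ratios and no nucleus above 20% of the UMIs. Its first was Hes1, a target of Notch signalling that is also on the innate lymphoid list. Hes1 gave 786 against 20.0 CPM (log2 5.29, 4.86 to 5.73) in 20 nuclei, and 210 against 27.2 CPM (log2 3.07, 1.27 to 4.26) in 4 knockout nuclei. Deptor, an inhibitor of mTOR, gave 212 against 6.44 CPM (log2 5.04) and Apbb2, an adaptor that binds amyloid precursor protein, 275 against 12.4 CPM (log2 4.48). Socs2, a feedback inhibitor of cytokine signalling, gave 511 against 70.8 CPM (log2 2.86, 2.44 to 3.24) and 378 against 86.7 CPM (log2 2.20, 0.97 to 3.08). Apart from Atp8a2 and Ptpn13, the higher genes named here and in the next paragraph had fewer than 20 UMIs expected from the other control nuclei. The expected numbers ran from 0.819 (Deptor) to 19.0 (Ipmk). Such genes entered only through the Th2 nuclei, so their control ratios lean upward by construction.

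Rad50, whose introns hold the control region of the Th2 cytokine cluster, was itself higher in RNA: 291 against 41.5 CPM (log2 2.83, 2.26 to 3.33) in 17 control nuclei, and 252 against 34.3 CPM (log2 2.98, 1.38 to 4.07) in 4 knockout nuclei. Pard3, a cell polarity protein, gave 2.69 and 2.55, Ipmk, an inositol phosphate kinase, 2.37 and 2.24, Bmpr2, a receptor for bone morphogenetic proteins, 2.23 and 2.77, and Atp8a2, a lipid flippase, 2.22 and 1.30. Gm42620 gave 4.18 in the control library, but it lies inside Ptpn13 on the opposite strand, and the use of strand in counting is not stated, so its UMIs cannot be told apart from Ptpn13. The same ranking placed among the lowest Prkch, a protein kinase C, at 283 against 940 CPM (log2 -1.71), Nfat5, a factor of the osmotic stress response (-1.53), and Arnt, the partner of HIF-2α and of the aryl hydrocarbon receptor (-2.04, -3.81 to -0.95).

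Ranked over both libraries at once, with the same limit on single nuclei, 11 genes were higher and 2 lower with intervals clear of 0 in each. Of the 266 genes with enough UMIs in both libraries, 40 met the limit on single nuclei and entered that ranking. It holds 4 regulators, Fosl2 of the AP-1 family (log2 0.95 and 1.40), Runx1 (0.81 and 1.23), Elf1 (0.74 and 1.48) and the chromatin remodeller Chd7 (0.65 and 0.80). The other 7 were ribosomal protein genes, from Rps13 (0.34 and 0.58) to Rps20 (0.54 and 1.44). The lower ones were Dock10 (-0.31 and -0.80) and H2-K1 (-0.18 and -0.46). None of the 13 was 2-fold different in the control library. Fosl2 and Elf1 had 8.53 and 15.6 knockout UMIs expected, so in that library they entered only through the Th2 nuclei. Knockout ratios are here too to be read against their median of 0.34.

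Th1 genes were mostly lower in control Th2 nuclei. Of 20 listed, 15 were measured in the control library, none at least 2-fold higher and 10 at least 2-fold lower, where 12.8% of all genes were lower, with a median log2 ratio of -1.34. Knockout Th2 nuclei had 10 measured, 5 of them lower, where 11.6% of all genes were lower. There were 2 higher, the chemokine gene Xcl1 (log2 2.19) and the chemokine receptor gene Cxcr6 (1.64), where 20.8% of all genes were higher. All 25 knockout UMIs of Xcl1 lay in 1 nucleus. Il12rb2, the receptor chain for IL-12, gave 15.7 against 465 CPM from 2 UMIs (log2 -4.57, -7.93 to -3.03) and 42.0 against 661 CPM from 1 UMI (log2 -3.39, -9.28 to -1.50). Ccl5 gave 39.3 against 438 CPM (log2 -3.34, -5.10 to -2.25). The granzyme gene Gzma gave no UMI in either library, against 313 and 396 CPM, which is at least 13.3-fold lower in the control library. Hopx gave log2 ratios of -2.03 and -1.45. Ifng came from 6 UMIs of 1 control nucleus, at 47.2 against 139 CPM, and Tbx21 gave 4 control UMIs, at 31.5 against 89.2 CPM. Stat4, by contrast, was near the others, at 2328 against 2780.4 CPM.

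Of 15 Th17 genes, 10 were measured in the control library, 1 higher and 5 lower, and 4 in the knockout library, 2 of them lower. Beside them, 8.76% of all genes were higher and 12.8% lower in the control library, and 11.6% lower in the knockout library. The IL-23 receptor gene Il23r gave no UMI against 214 CPM, at least 9.06-fold lower, and Il1r1 none against 83.9 CPM, at least 3.56-fold lower. Il22 gave 47.2 against 263 CPM (log2 -2.37, -3.93 to -1.35) and 84.0 against 415 CPM from 2 UMIs (log2 -1.98, -5.35 to -0.45). The knockout library gave no Il23r or Il1r1 UMI either. The higher member was Ltb4r1, described above, 1 of 2 members that reached the minimum only through Th2 nuclei, and Ahr, the aryl hydrocarbon receptor, gave log2 ratios of 0.67 (-0.01 to 1.23) and 0.76 (-1.01 to 1.86).

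For genes of regulatory T cells, 11 of 15 were measured in the control library, none higher and 4 lower, and 5 in the knockout library, 1 higher and 2 lower. The shares over all genes were 8.76% higher and 12.8% lower in the control library, and 20.8% and 11.6% in the knockout library. Ctla4 gave 165 against 1617 CPM (log2 -3.26, -3.98 to -2.68) and 168 against 1619 CPM (log2 -3.10, -5.15 to -1.91). Ikzf2, the gene of Helios, gave 244 against 1530 CPM (log2 -2.63, -3.21 to -2.14) and 672 against 1745 CPM (log2 -1.33), where 1 knockout nucleus held all 16 UMIs. The rule bars Foxp3 from the Th2 nuclei, and Foxp3-positive nuclei are among the others. In nuclei with neither a Foxp3 nor a marker UMI, Ctla4 was at 1406 and 1457 CPM and Ikzf2 at 1330 and 1488 CPM. Foxp3 itself was sparse, with 346 UMIs in the 242 Foxp3-positive control nuclei, so nuclei without its UMI can include regulatory T cells. The part of such nuclei in these ratios was not tested. After thinning, 7.69% of control Th2 nuclei had a Ctla4 UMI, against 55.5% of the other Cd3-positive nuclei and 5.48% of the Cd3-zero ILC3-type nuclei, so the Th2 share was near the background share.

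Of 10 genes of naive and recirculating cells, 7 were measured in the control library, none higher and 3 lower. There 8.76% of all genes were higher and 12.8% lower. Bach2, a repressor that keeps lymphocytes from effector fates, gave 385 against 1106 CPM (log2 -1.51, -1.96 to -1.12) and 336 against 1071 CPM (log2 -1.59, -2.89 to -0.69), and Lef1 gave 1 control UMI against 127 CPM. Of 12 genes of follicular helper cells, 7 were measured in the control library and 2 were lower, beside 12.8% of all genes. Sh2d1a gave 15.7 against 112 CPM from 2 UMIs (log2 -2.51, -5.88 to -0.97).

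Control Th2 nuclei carried T-cell receptor RNA near the level of other T nuclei. Trac gave 558 against 638 CPM and Trbc2 692 against 702 CPM in the control library, and 49 of 53 nuclei had a UMI of Trac, Trbc1 or Trbc2, as had 8 of 10 in the knockout library, where Trac itself gave 3 UMIs, 126 against 571 CPM (log2 -1.96, -4.46 to -0.63). All 18 genes of the receptor complex and its signalling were measured in the control library, none at least 2-fold higher and 1 lower, with a median of -0.06. Lck was the lower one, at 78.6 against 223 CPM (log2 -1.44, -2.57 to -0.62). The costimulatory ligand Cd40lg gave 1046 against 302 CPM (log2 1.80, 1.52 to 2.05) in 39 control nuclei and 420 against 334 CPM (log2 0.40, -0.74 to 1.22) in the knockout library. It was 1 of 2 higher among 13 measured costimulatory and inhibitory genes of the control library, with 4 lower. Beside both lists, 8.76% of all genes were higher and 12.8% lower in that library.

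Of 13 genes listed for innate lymphoid cells, 9 were measured in the control library, 2 higher (Hes1 and Arg1) and 4 lower, with a median of -0.24. Both higher genes reached the minimum only through Th2 nuclei. The knockout library had 3 measured, 1 higher and 2 lower. Shares over all genes were 8.76% higher and 12.8% lower in the control library, and 20.8% and 11.6% in the knockout library. The 6 defining genes of these cells summed to 149 CPM in control Th2 nuclei, 132 CPM in the other Cd3-positive nuclei and 1480 CPM in Cd3-zero ILC3-type nuclei. Fcer1g and Tyrobp gave no UMI, Kit 10 UMIs in 4 nuclei and Arg1 6 UMIs, and in all 8 of 53 control nuclei and 0 of 10 knockout nuclei had a UMI of a defining gene. Of 11 mast cell and basophil genes only Hdc, for histidine decarboxylase, was seen, with 22 UMIs of which 95.5% lay in 1 control nucleus, and the other 10 members were at 0. Of 11 myeloid genes 8 were at 0 and the list summed to 149 CPM against 350 CPM in the others. Of 11 epithelial genes 10 were at 0, of 9 B and plasma cell genes 5, and of 8 stromal and endothelial genes 7. Among 11 genes induced by tissue dissociation, 1 was 2-fold higher in the control library, Fosb at 1172 against 530 CPM (log2 1.15, 0.90 to 1.39), and the median was 0.01. The knockout library had 9 measured, 2 higher and 4 lower, among them the heat shock gene Hspa1b at 126 against 1084 CPM (log2 -2.88). Over all genes, 8.76% were higher in the control library, and 20.8% higher and 11.6% lower in the knockout library. The part of dissociation in these levels was not tested.

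The rule did not use accessibility, but it chose nuclei by RNA of Il5, Il13, Il17rb, Pparg and Hs3st1. Openness at these loci in the same nuclei is therefore not independent of the selection. Accessibility is summed over peaks present in both libraries within 50 kb of a gene. It is expressed as fragments in CPM of all fragments in shared peaks. Around Il13 control Th2 nuclei had 318 against 139 fragment CPM (log2 1.20, 0.74 to 1.60) and knockout Th2 nuclei 325 against 133 (log2 1.34, 0.32 to 2.10). Around Il4 the log2 ratios were 0.93 (0.49 to 1.32) and 1.05 (0.08 to 1.78), and around Rad50 1.05 (0.69 to 1.39) and 0.83 (-0.09 to 1.54). Around Il5 they were 0.21 (-0.27 to 0.62) and 0.02. Over the whole cluster, 28 peaks held 98 and 22 fragments, with log2 ratios of 0.55 (0.23 to 0.83) and 0.50. The Il4, Il13 and Rad50 windows overlap and share peaks, and the Rad50 window also spans Il5 and shares peaks with the Il5 window. The windows are thus not separate observations.

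Single peaks held few fragments, and the higher ones named here, with at least 5 fragments in control Th2 nuclei and a lower bound above 0, were chosen after their values were seen. A peak 440 bp upstream of Il5, at chr11:53719422-53720354 on mm10, held 10 control fragments where the other nuclei's rate gives 1.53 (log2 2.77, 1.58 to 3.68), and 2 knockout fragments where 0.269 were expected. A peak in an intron of Il4, at chr11:53605337-53606196, held 9 against 1.91 (log2 2.31, 1.05 to 3.24). The promoter peak of Il13, at chr11:53634272-53635138, which spans the promoter sequence printed above, held only 1 control fragment and gives no direction. At Il5 the excess was thus in 1 upstream peak and not over the 50 kb window.

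Around Pparg accessibility was 136 against 41.7 fragment CPM in the control library (log2 1.74, 0.99 to 2.35) and 136 against 62.6 in the knockout library (log2 1.25, -0.52 to 2.36). Its promoter peak at chr6:115360685-115361604, around the Pparg sequence printed above, held 5 control fragments against 0.502 expected (log2 3.42, 1.55 to 4.77) and none in the knockout library. An intronic peak at chr6:115440193-115441103 held 6 against 0.678 (log2 3.23, 1.58 to 4.45). Gata3, in contrast, was hardly different as a locus (log2 0.14 and 0.55), with 1 intronic peak at chr2:9860309-9861337 holding 6 against 1.03 fragments (log2 2.64, 1.02 to 3.79). The log2 ratio of Gata3 RNA in the same control nuclei was 2.07.

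Accessibility did not always go with RNA. Il9, without a UMI in control Th2 nuclei, had a log2 accessibility ratio of 0.61 (0.10 to 1.04) and 0.68, and its peak at chr13:56487735-56488642, 5489 bp away, held 10 against 2.79 fragments (log2 1.91, 0.74 to 2.78) and 3 against 0.587 in the knockout library (log2 2.56, 0.04 to 3.97). Il1rl1 was at -0.11 and 0.52 and Il17rb at 0.20 and 0.91. On the other side, Il23r was at -1.13 in the control library with 7 fragments, Ifng at -1.03 (-2.10 to -0.25) in control but 0.77 in knockout Th2 nuclei, and Il10 at -0.48 and -2.49, the latter from 1 fragment. Tbx21 was at 0.09 as a locus, yet an intronic peak at chr11:97103728-97104581 held 10 against 2.66 control fragments (log2 1.97, 0.81 to 2.85).

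**Figure D3:**
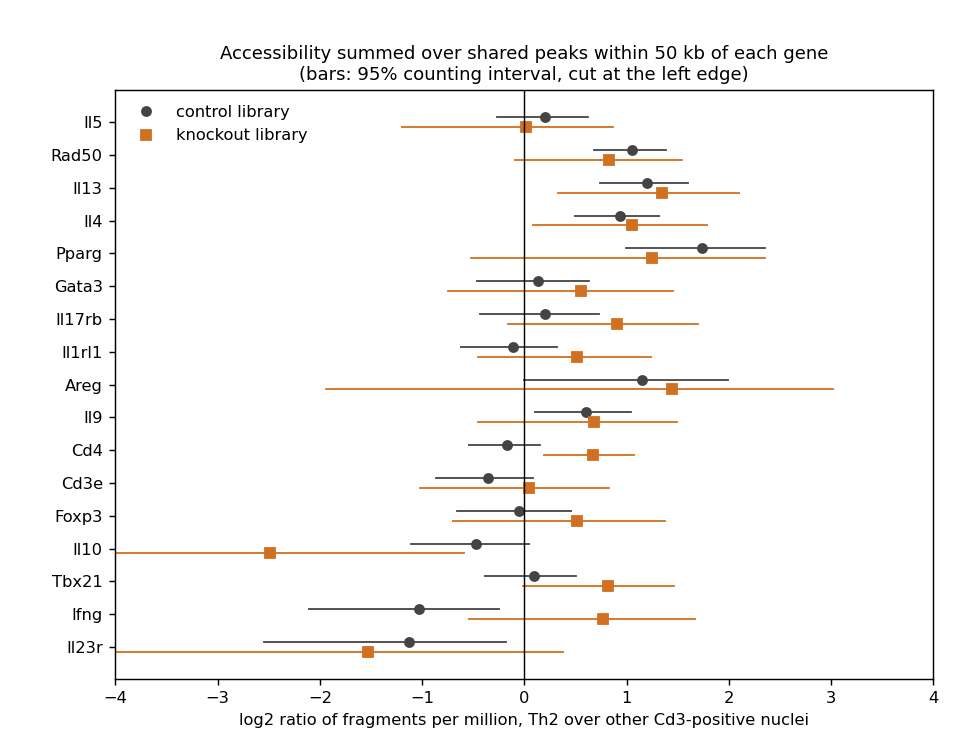
Log2 ratio of accessibility within 50 kb (horizontal axis) of 17 loci in Th2 over other Cd3-positive nuclei, with 95% counting intervals, for both libraries; bars running past the left edge have no lower bound in the plotted range. The points of Pparg, Il13, Rad50 and Il4 lie right of 0 in both libraries, and those of Il23r and Il10 left of 0 in both.

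Across 1374 genes with at least 20 fragments observed plus expected around them, loci of genes with higher RNA were the more accessible in control Th2 nuclei. The median log2 accessibility was 0.36 for the 94 genes whose RNA was at least 2-fold higher, 0.03 for 1182 within 2-fold and -0.16 for 98 at least 2-fold lower, and 76.6%, 53.9% and 24.5% of these lay above 0. Accessibility in knockout Th2 nuclei of the same gene groups, set from control RNA, had medians of 0.43, 0.05 and -0.13. Neighbouring genes share peaks, so genes are not independent. The highest of these 1374 loci, which do not include Pparg, was Pxdc1 (log2 1.70, 0.91 to 2.34, and 1.65 in the knockout library), followed by Socs2 (1.33, 0.67 to 1.88) and Ccl1 (1.33, 0.81 to 1.78, and 1.54, 0.52 to 2.30).

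Epas1 stood at 1.17 (0.79 to 1.51), with Pard3 at 1.12, Apbb2 at 1.01, Cd40lg at 0.99, Csf2 at 0.96 and Tnfsf11 at 0.93 (0.43 to 1.36) also among the 18 highest. In the knockout library Epas1 was at 0.66, Pard3 at 1.15, Apbb2 at 1.11, Csf2 at 1.27 and Tnfsf11 at 0.44. Cd40lg lay on the other side there, at -0.67 from 2 fragments against 3.97 expected. Each of these knockout intervals included 0. The lowest of the 1374 was Il12rb2, with 6 fragments against 28.9 expected (log2 -2.15, -3.72 to -1.14) in the control and 3 against 7.10 in the knockout library. Ikzf2 was at -1.04 (-1.86 to -0.40) and Ctla4 at -0.60 (-1.15 to -0.13). Ptpn13 was an exception, at -0.07 (-0.70 to 0.45) and -0.20 for a gene among the highest in RNA, and Stat5b another, at -0.06 beside a log2 RNA ratio of -2.08.

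**Figure D4:**
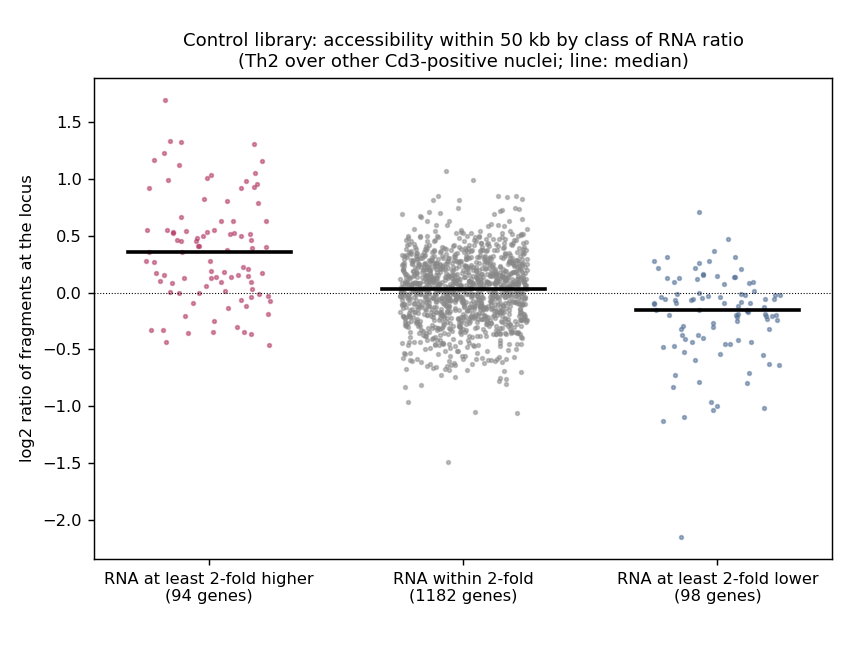
Log2 accessibility ratio within 50 kb of a gene (vertical axis) in control Th2 over other Cd3-positive nuclei, by class of the gene's RNA ratio (horizontal axis), with 1 point per gene and a line at the median. The medians step from -0.16 over 0.03 to 0.36 from lower to higher RNA.

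Peak by peak, no region could be called in both libraries: only 5 shared peaks had 20 fragments in each, and 0 (0%) were 2-fold higher or lower in both. In the control library alone 7 of 650 peaks (1.08%) were at least 2-fold higher and 0 (0%) lower, but after centring on the median over peaks 1 was higher and 3 were lower. The 7 included a peak 3512 bp from Tnfrsf18, the gene of GITR, at chr4:156021814-156022652, with 24 fragments against 10.8 expected (log2 1.18), and promoter peaks such as that of Celf1 (1.12). The highest was on an unplaced scaffold. The minimum keeps only strongly open peaks, and the single peaks of the type 2 loci above fall below its minimum.

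Within the control Th2 nuclei, the 24 with an Il5 or Il13 UMI were set beside the 29 without. Gata3 stood at 1804 and 1352 CPM (log2 0.41, -0.00 to 0.83), Il4 at 518 and 416 CPM (0.31, -0.47 to 1.11) and Ptpn13 at 4192 and 4086 CPM (0.04, -0.22 to 0.29), so in the control library these genes did not separate the groups beyond counting error. Ccl1 did, at 1336 and 29.7 CPM (log2 5.18, 3.59 to 8.56), as did Areg at 919 and 223 CPM (2.01, 1.20 to 2.97), Csf2 at 418 and 59.4 CPM (2.67, 1.28 to 4.80) and Tnfsf11 at 1269 and 490 CPM (1.36, 0.76 to 2.01). Counting error leaves out the spread between nuclei. Csf2 came from 3 nuclei, 1 of them with 55.2% of its UMIs. A single nucleus held 25 of the 70 Areg UMIs, and Ccl1 leaned on 1 nucleus as given above. Few nuclei can thus make these differences. Il17rb and Pparg were lower with Il5 or Il13, at 200 and 654 CPM and 200 and 639 CPM, which the rule itself sets, since nuclei without the cytokines must reach 2 UMIs by the other markers. Median depth was 2213.5 and 2249 UMIs.

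In the 5 and 5 knockout nuclei split the same way, Csf2 was again the higher with the cytokines (log2 2.29, 1.11 to 3.93). Unlike in the control library, so were Ptpn13 at 12212 against 1292 CPM (3.20, 2.47 to 4.11), Gata3 at 3033 against 1206 CPM (1.30, 0.41 to 2.33) and Il4 at 984 against 86.1 CPM (2.99, 0.76 to 8.93), while Ccl1 gave 0.38 (-1.46 to 2.41). The nucleus of 25 marker UMIs is among the 5 with the cytokines. Calca in the control library was at 468 and 684 CPM (log2 -0.54, -1.28 to 0.16) and Hes1 at 635 and 921 CPM (-0.53, -1.16 to 0.07), so neither was tied to Il5 and Il13 RNA beyond counting error.

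Th2 nuclei were also set beside Foxp3-positive nuclei and beside Cd3-zero nuclei with marker UMIs. Foxp3-positive nuclei (242 in the control library) had Gata3 at 559 CPM against 1565 CPM in Th2 nuclei (log2 1.49, 1.22 to 1.74), but more Il1rl1, at 711 against 377 CPM (log2 -0.90, -1.38 to -0.48), and more Areg, at 842 against 550 CPM (log2 -0.60). Il4 was at 7.06 CPM in them, Hes1 at 5.29 and Cd40lg at 95.3, against 464, 786 and 1046 CPM in Th2 nuclei. Il1rl1 was thus higher in Foxp3-positive nuclei than in the Th2 nuclei of this library. Of the Foxp3-positive nuclei, 3 of 242 had 2 marker UMIs (1.24%), and 0 of 96 in the knockout library, which allows up to 3.77%.

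Cd3-zero nuclei with 2 marker UMIs and no Foxp3 numbered 13 of 1645 in the control (0.790%) and 4 of 892 in the knockout library (0.448%). They carried genes of several cell types: Cd74 was at 2293 CPM against 110 CPM in Th2 nuclei (log2 -4.34 for Th2 over them, -5.33 to -3.52), H2-Aa at 1567 against 23.6 CPM, and Il22 at 1643 against 47.2 CPM. Gata3 was lower than in Th2 nuclei, at 344 against 1565 CPM (log2 2.11, 1.23 to 3.34), while Trac was at 726 against 558 CPM. Il1rl1 was higher than in Th2 nuclei, at 803 against 377 CPM (log2 -1.11, -1.86 to -0.27). So was Rora, at 4968 against 2988 CPM (log2 -0.74, -1.02 to -0.43). In the 4 knockout nuclei of this kind both were higher too (log2 -2.34 and -0.91). Whether these Cd3-zero nuclei are doublets was not tested.

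Between knockout and control Th2 nuclei, 36 of 572 genes (6.29%) were at least 2-fold higher in the knockout and 45 (7.87%) at least 2-fold lower, with a median log2 ratio of -0.03. Differences of 10 nuclei from 53 cannot be told apart from differences between the libraries or their animals. Of genes with no nucleus above 20%, Tnfsf11 was the lowest, with 1 UMI against 109 (42.0 against 857 CPM, log2 -3.77, -9.67 to -1.84), while in the other Cd3-positive nuclei the ratio was 0.15. Calca had 2 UMIs against 74 (log2 -2.48, -5.86 to -0.89, others 0.33). Just outside the rule, nuclei with 1 marker UMI had Calca at 470 CPM in the knockout and 130 CPM in the control library. Above 4000 UMIs, nuclei meeting the other conditions had it at 304 CPM in the knockout and 332 CPM in the control library. Lrig1, an inhibitor of growth factor receptors, had 1 UMI against 52 (log2 -2.71, -8.61 to -0.74, others -0.43). The CD30 ligand gene Tnfsf8 gave 3 against 88 (log2 -2.24, -4.76 to -0.86, others -0.23). Whether these ratios differ between Th2 and other nuclei was not tested.

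Higher in knockout Th2 nuclei were Dad1, a subunit of oligosaccharyltransferase (log2 1.40, 0.48 to 2.23, others -0.04), Runx1 (0.64, 0.27 to 0.99, others 0.22) and Elf1 (0.62, 0.08 to 1.10, others -0.12). Cd4 was at 1428 against 189 CPM (log2 2.91, 2.12 to 3.74), but it was also higher in the other Cd3-positive nuclei, at 782 against 269 CPM (log2 1.54), so the difference was not limited to Th2 nuclei. Gata3 differed by 0.46 (-0.02 to 0.90). Hilpda was at 1134 against 401 CPM (log2 1.51, 0.77 to 2.20) with 48.1% of the knockout UMIs in 1 nucleus, Cd40lg at 420 against 1046 CPM (log2 -1.25, -2.41 to -0.39), and Nfil3 gave no knockout UMI where the control had 30. Hes1 was at 210 against 786 CPM (log2 -1.77, -3.56 to -0.63).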

How the data were processed

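The files deposited by the authors are raw counts, in UMIs for 32285 genes and in cuts per peak for each barcode, made with Cell Ranger ARC 2.0.1 on mm10, per the submitters' processing notes. No filter before deposit is stated beyond the calling of barcodes. Even values made up 91.7% and 90.7% of the peak counts, as counts of both ends of fragments would, so fragments were taken as the count divided by 2, rounded up.

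UMIs were summed over nuclei per library and given as CPM. Log2 ratios used 0.5 UMI added to each sum with an exact conditional 95% interval, sums exact Poisson and shares Clopper-Pearson intervals, all for counting error only. Called means at least 2-fold, among genes with 20 UMIs observed or expected in Th2 nuclei (5 for gene lists, 50 UMIs over both libraries for knockout against control) or peaks with 20 fragments. Peaks were shared where they overlapped by at least 1 base (87.7% of control and 85.8% of knockout peaks). A free-RNA background was taken from Cd3-zero nuclei with at least 2 UMIs summed over 4 ILC3 marker genes, Il23r, Il1r1 and Ncr1 among them. For levels and thinned shares of single genes, nuclei with any UMI of the 5 type-2 marker genes were left out of it. This can lower that background. Some genes of the lists are not reported here. No doublet caller was run; the upper limit of 4000 UMIs removes the deepest barcodes. A gene was named as a list member, as 1 of the 15 highest or 10 lowest ratios (8 for knockout against control) with an interval clear of 0 and no nucleus above 20% of the UMIs, or, after its value was seen, where the text says so. The members and lists were chosen with earlier results of these data known. Ratios were tested on simulated counts, where all 4-fold changes were called in both libraries, with 1514 and 277 genes simulated, and 7 of 1314 and 7 of 183 unchanged genes were called. The simulation drew Poisson counts for the summed UMIs, with no spread between nuclei. It therefore says nothing about errors where few nuclei hold most of a gene's UMIs. Python 3.11.15, numpy 2.4.6, scipy 1.17.1 and pandas 2.3.3 were used.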

Additional observations from a re-analysis of the deposited data

Results flagged for a closer look

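Tnfsf11 was marked because its Th2 level lay on opposite sides of the other Cd3-positive nuclei in the libraries. Control Th2 nuclei had a log2 ratio of 1.71 and knockout Th2 nuclei one of -2.21, the latter from 1 UMI. The difference between the libraries was not tested.

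Cd3-positive nuclei above 4000 UMIs lie outside the comparisons above, and many of them met the other conditions of the rule. The share was 6.37% in the knockout library (32 of 502, 4.40% to 8.88%) and 4.56% in the control library (20 of 439). They also held Il23r, of which the Th2 nuclei had no UMI, at 453 and 501 CPM, beside Gata3 at 444 and 774 CPM. Median depths were 11314 and 6528.5 UMIs, and whether these barcodes hold more than 1 nucleus was not tested.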

How the results depend on the processing

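No paired analysis was possible because each genotype has 1 library, so no replicate number pairs samples and no replicate could be left out. Of 650 log2 ratios of 25 genes recomputed under the alternatives, 586 stayed within the reported counting interval, 63 moved out of it and 1 changed sign, Tnfsf11 in the knockout library, at 0.33 with no upper limit on UMIs; the cause was not tested.

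The control share became 1.48% with at least 3 marker UMIs, 1.82% with Il5, Il13 and Il17rb only and 1.44% thinned, and the knockout share 3.03% with no upper limit and 0.499% thinned. With at least 3 marker UMIs 2 genes were lower in both libraries, 60 lower in the control library and 51 different between knockout and control. With no upper limit 73 genes were lower in the control library and 148 different in the knockout; 2 peaks were higher in both libraries, 28 higher and 12 lower in the control library. With Il5, Il13 and Il17rb only, 1 peak was higher in both libraries, and with at least 2 Cd3 UMIs 2 peaks were lower in the control library.

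Counts followed the minimum. With 10 and 25 UMIs, 29 genes were higher and 12 lower in both libraries, 174 and 290 in the control library, and 227 differed in the knockout. With 50 and 100 UMIs these were 2, 0, 45, 26 and 29, and with no minimum 299, 228, 1980, 1798 and 3062. Control peaks higher and lower numbered 206 and 73 with 10 fragments, 174 and 77 on counts as deposited and 1 and 3 after centring on the median, and 1 was higher with 50 fragments. Thinned to 1000 UMIs, 28 genes differed in the knockout. The control-library counts, the minimum of 5 UMIs and the control ranking were added after the data were seen. The 10 knockout nuclei limit every knockout value.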
